A study of Mus musculus with 6 samples.

Results

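The cone phototransduction genes described here are the 10 genes whose products carry the light response of cone photoreceptors: the opsins Opn1sw and Opn1mw, the arrestin Arr3, the transducin subunits Gnat2, Gnb3 and Gngt2, the phosphodiesterase subunits Pde6c and Pde6h, and the channel subunits Cnga3 and Cngb3. They were taken by name, not by any measured value, as every probe on the arrays that carries one of these gene names, which gave 13 of 39429 probes. Opn1mw, Arr3 and Pde6h have 2 probes each and the other members 1. RNA of mouse retina was measured on 6 two-colour Agilent arrays, each holding a compound sample beside a control sample, with 3 arrays for SH-42 and 3 for SH-80, compounds known here by code name alone. All animals were adult male C57BL/6 mice, which per the labels received 1 µM of SH-42, of SH-80 or of the vehicle PBS into the vitreous of the right eye. Retinas were taken at day 7, with 12 mice per group and 4 retinas in a pool, so every channel is a pool of animals. At 4 retinas per pool, 12 control mice give only 3 pools. Arrays, and both compounds, may therefore share control RNA, and p-values measure only the spread between these arrays.

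In a cone, light activates an opsin, the opsin activates transducin, and transducin releases the phosphodiesterase from its inhibitory subunit. The phosphodiesterase then breaks down cyclic GMP, and the cyclic nucleotide-gated channel closes; cone arrestin ends the signal by binding the phosphorylated opsin. Rods run the same cascade with proteins of their own genes. Most mouse cones hold both opsins, the short-wavelength opsin Opn1sw (S opsin) being more abundant in ventral retina and the medium-wavelength opsin Opn1mw (M opsin) in dorsal retina.

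RefSeq promoter windows (build GRCm38.p6) matched 7 windows of 6 of the 10 members: Opn1sw, Opn1mw, Arr3, Gnat2, Pde6h and Cnga3, the last with 2. The 250 bases before each window's start site are printed for the opsins and for Arr3. These are the genes that set S and M cones apart and the arrestin that had the largest called difference below. Capitals mark TAATC, the core of sites bound by photoreceptor homeodomain factors such as Crx, and AGGTCA, the half-site of nuclear receptors, a family that includes Thrb and Rxrg, searched on both strands (GATTA and TGACCT on the other). The windows lie at chr6:29380514-29380763 on the minus strand, chrX:74127216-74127465 on the plus strand and chrX:100605247-100605496 on the plus strand, and each is written 5′ to 3′ along its gene.
Opn1sw: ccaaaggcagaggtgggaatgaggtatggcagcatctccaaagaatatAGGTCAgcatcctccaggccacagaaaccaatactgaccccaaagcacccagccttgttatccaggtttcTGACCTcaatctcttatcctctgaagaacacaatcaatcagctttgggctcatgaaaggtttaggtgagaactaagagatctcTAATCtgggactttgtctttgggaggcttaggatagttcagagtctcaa
Opn1mw: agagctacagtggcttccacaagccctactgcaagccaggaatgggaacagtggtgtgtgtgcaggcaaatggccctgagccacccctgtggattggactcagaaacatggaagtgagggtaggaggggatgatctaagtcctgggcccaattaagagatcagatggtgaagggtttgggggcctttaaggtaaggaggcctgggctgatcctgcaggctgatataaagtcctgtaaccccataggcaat
Arr3: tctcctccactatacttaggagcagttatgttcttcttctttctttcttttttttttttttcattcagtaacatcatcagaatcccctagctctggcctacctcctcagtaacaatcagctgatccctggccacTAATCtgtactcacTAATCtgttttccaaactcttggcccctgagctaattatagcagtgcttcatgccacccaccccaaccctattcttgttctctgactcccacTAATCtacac
Opn1sw held 1 TAATC, at -49 from the start, and 2 AGGTCA, at -202 and -132. Arr3 held 3 TAATC, at -116, -102 and -10 from its window's start site. That site lies past the annotated gene start at 100605480, so the last bases of the window lie inside the annotated gene. The Opn1mw window had neither. Over all 7 windows of the members, 3 held TAATC and 1 held AGGTCA, against 19.8% and 14.0% of 32851 RefSeq windows of the same length. The longer TAATCC, which contains TAATC, was in 1 member window, that of Gnat2, and in 6.25% of all windows.

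Per the labels, Cy3 holds the compound sample and Cy5 the control on every array, with no array of exchanged dyes. The deposited value table runs the other way, as Cy5 over Cy3. The direction is therefore not settled. Each log ratio below is the log2 ratio of the Cy3 to the Cy5 signal, which is compound over control only if the labels hold. With the channels exchanged every sign turns, also in the comparison of the compounds. An effect of the dye on a probe remains in each such log ratio and can be equal on all 6 arrays.

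Spots well above background made up 58.3% to 63.1% of an array in Cy3 and 70.9% to 76.7% in Cy5, and 0 were saturated. SH-42 replicate 1 stood apart: its log ratios over all features had an SD of 0.499, against 0.157 to 0.361 on the other 5 arrays, and correlated with theirs at r of -0.16 to 0.16, where the others correlated with each other at 0.47 to 0.87. The members' values that rest on it are given with and without it, as are the medians of the main gene lists. SH-42 replicates 1 and 2 lay on slide 1, and SH-42 replicate 3 and all SH-80 arrays on slide 2. As a check of the labelled tissue, 11 of 11 rod genes were well above background in both channels on every array.

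All 13 probes of the members were well above background in both channels on all 6 arrays, and 0 of their spots were flagged. The members therefore all entered the fit of 24078 features. For a gene with several probes the brightest was used.

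**Figure D1:**
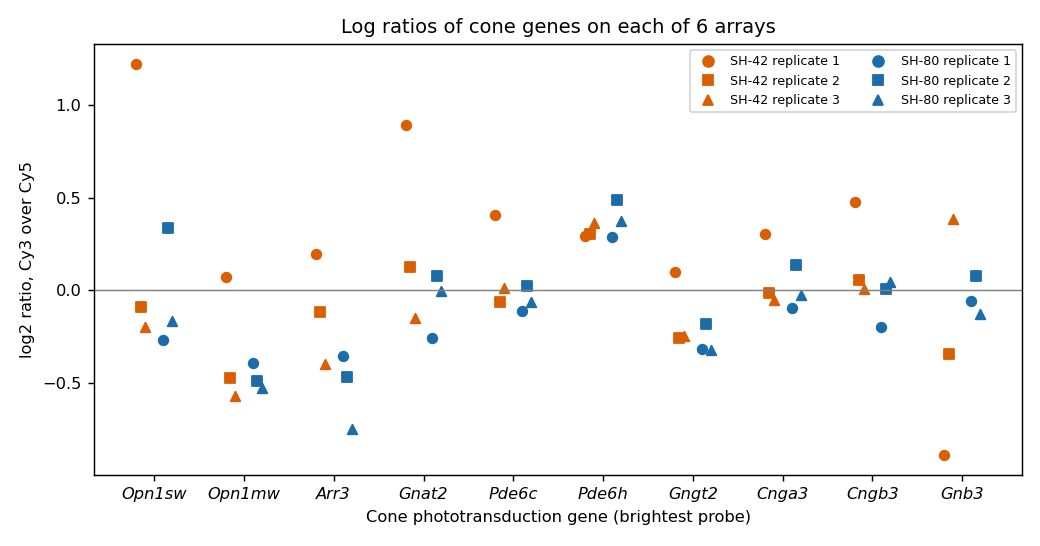
Log2 ratio of Cy3 over Cy5 (vertical axis) of the brightest probe of each cone gene (horizontal axis) on each of the 6 arrays; colour gives the compound and shape the replicate. SH-42 replicate 1 is the highest point for 8 of the 10 genes and the lowest for Gnb3, and Pde6h lies between 0.29 and 0.49 on all arrays, after loess; median centring gave -0.34 for its SH-42 value.

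The opsins differed from each other in how steady they were. Opn1sw had log ratios of 1.23, -0.09 and -0.20 on SH-42 replicates 1, 2 and 3 and of -0.27, 0.34 and -0.16 on SH-80 replicates 1, 2 and 3. SH-42 replicate 1 was by far the highest, and the remaining arrays of both compounds overlapped around 0. Its fitted log ratio was 0.31 ± 0.283 (SE, n = 3 arrays) for SH-42 and -0.03 ± 0.283 for SH-80, and neither passed the threshold of 0.05 (limma, Benjamini-Hochberg adjusted p = 0.51 and 0.947). The SH-42 value was -0.14 without SH-42 replicate 1. In these bulk samples, fewer cones and less RNA per cone cannot be told apart.

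Opn1mw, the opsin of M cones, had log ratios of 0.07, -0.47 and -0.57 with SH-42 and of -0.39, -0.49 and -0.53 with SH-80. It was below 0 on 5 of 6 arrays, the exception being SH-42 replicate 1. The fitted values were -0.32 ± 0.124 for SH-42 (limma, adjusted p = 0.193) and -0.47 ± 0.124 for SH-80 (adjusted p = 0.0529), so neither passed. Both did without SH-42 replicate 1, at -0.52 for SH-42 (limma, adjusted p = 0.0246) and -0.47 for SH-80 (adjusted p = 0.00659). Its dimmer probe gave 0.01, -0.44 and -0.48 with SH-42 and -0.40, -0.41 and -0.40 with SH-80. With every probe fitted as a feature of its own, that probe passed for SH-80 at -0.40 ± 0.0997 (limma, adjusted p = 0.0474) and the brighter one did not (adjusted p = 0.0528).

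The log ratio of S opsin minus that of M opsin, taken on each array, was 1.15, 0.38 and 0.37 with SH-42 and 0.12, 0.82 and 0.37 with SH-80. The ranges overlapped. The means were 0.64 ± 0.449 (SD, n = 3) and 0.44 ± 0.355, and an exact two-sided permutation test of their difference of 0.20 gave p = 0.5, where 20 permutations allow no p below 0.1. The difference was -0.062 without SH-42 replicate 1.

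Arr3, the cone arrestin, had the largest called difference among the members. Its log ratios were 0.20, -0.12 and -0.40 with SH-42 and -0.36, -0.47 and -0.75 with SH-80. All SH-80 arrays were below 0, and SH-42 replicate 3 lay inside their range. For SH-80 the fitted value was -0.52 ± 0.126, 1.44-fold lower in Cy3 than in Cy5 (limma, adjusted p = 0.0441). For SH-42 it was -0.11 ± 0.126 (limma, adjusted p = 0.62), or -0.26 without SH-42 replicate 1 (adjusted p = 0.22). The dimmer Arr3 probe gave a smaller SH-80 value, -0.20 ± 0.108 (limma, adjusted p = 0.24), and log ratios of 0.53, 0.06 and 0.01 with SH-42 and of -0.17, -0.13 and -0.29 with SH-80. On that probe the compounds did not overlap, the nearest values being 0.01 and -0.13. By the brightest probe, the compounds did not overlap for 13.5% of all features. The mean of both probes gave -0.36 (limma, adjusted p = 0.0784). The SH-80 call was also lost without any 1 of the SH-80 arrays or without SH-42 replicate 2 (limma, adjusted p = 0.0726 to 0.237). Of all features, 0% were called without any 1 of the SH-80 arrays and 9.41% without SH-42 replicate 2. With slide as a fixed block the SH-80 value was -0.38 (limma, adjusted p = 0.202), a setting that called 0% of all features. All SH-80 arrays lie on slide 2, so that block rests on SH-42 replicates 1 and 2 against replicate 3. With slide as a random block the SH-80 value was -0.51 (limma, adjusted p = 0.0574).

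Gnat2, the alpha subunit of cone transducin, followed the pattern of Opn1sw, with log ratios of 0.89, 0.13 and -0.15 with SH-42 and -0.25, 0.08 and 0.00 with SH-80. Both compounds spanned 0. Its fitted values were 0.29 ± 0.191 and -0.059 ± 0.191 (limma, adjusted p = 0.376 and 0.851), and the SH-42 value was -0.0095 without SH-42 replicate 1. Gngt2, the gamma subunit, was below 0 on the same 5 arrays as Opn1mw, at 0.10, -0.26 and -0.24 with SH-42 and -0.32, -0.18 and -0.32 with SH-80. Its fitted values were -0.13 ± 0.085 and -0.27 ± 0.085 (limma, adjusted p = 0.362 and 0.0754). Without SH-42 replicate 1 the SH-80 value passed (limma, adjusted p = 0.0127).

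Gnb3, the beta subunit, which ON bipolar cells also use, ran opposite to the others on SH-42 replicate 1. Its log ratios were -0.89, -0.34 and 0.39 with SH-42 and -0.06, 0.08 and -0.13 with SH-80. The SH-42 arrays spread far more widely than the SH-80 arrays, which lay within their range, with SDs of 0.64 and 0.105. Neither fitted value passed, at -0.28 ± 0.216 and -0.035 ± 0.216 (limma, adjusted p = 0.443 and 0.925), and the SH-42 value was 0.022 without SH-42 replicate 1.

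Pde6h, the inhibitory gamma subunit of the cone phosphodiesterase, was the steadiest member. Its log ratios were 0.29, 0.31 and 0.36 with SH-42 and 0.29, 0.49 and 0.38 with SH-80. They were above 0 on all 6 arrays, SH-42 replicate 1 included, and the compounds overlapped. The fitted values were 0.32 ± 0.0588 for SH-42 (limma, adjusted p = 0.0909) and 0.38 ± 0.0588 for SH-80, 1.30-fold higher in Cy3 (limma, adjusted p = 0.0266). The dimmer probe gave 0.35 ± 0.0544 and 0.39 ± 0.0544, with the second called as well (limma, adjusted p = 0.0262). The direction depends on the dye normalization: with median centring in place of loess the values were -0.34 for SH-42 (limma, adjusted p = 0.0823) and 0.0072 for SH-80 (adjusted p = 0.973). The SH-80 call was lost without any 1 of the SH-80 arrays (limma, adjusted p = 0.125 to 0.193), when 0% of all features were called, and with slide as a fixed block, at 0.36 (adjusted p = 0.154); with slide as a random block it held, at 0.38 (adjusted p = 0.035).

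Pde6c, the catalytic subunit of the same enzyme, had log ratios of 0.41, -0.06 and 0.01 with SH-42 and -0.11, 0.02 and -0.06 with SH-80. Apart from SH-42 replicate 1 it stayed between -0.11 and 0.02. Its fitted values were 0.12 ± 0.0975 and -0.050 ± 0.0975 (limma, adjusted p = 0.468 and 0.745). The log ratio of Pde6h was above that of Pde6c on 5 of 6 arrays after loess.

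The channel subunits were close to 0 outside SH-42 replicate 1. Cnga3, the cone channel's pore-forming subunit, gave 0.30, -0.02 and -0.05 with SH-42 and -0.09, 0.14 and -0.03 with SH-80. Cngb3, its modulatory subunit, gave 0.48, 0.05 and 0.01 with SH-42 and -0.20, 0.01 and 0.04 with SH-80. Both spanned 0 within SH-80. The fitted values of Cnga3 were 0.079 ± 0.0879 and 0.0055 ± 0.0879 (limma, adjusted p = 0.589 and 0.971), and those of Cngb3 were 0.18 ± 0.105 and -0.048 ± 0.105 (limma, adjusted p = 0.332 and 0.776).

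For SH-42 against control, 0 of 10 members were called, where 0.602% of all features were (0.0581% higher and 0.544% lower in Cy3); at an unadjusted p under 0.05 there were 2 members, Opn1mw and Pde6h. Their log ratios had a median of 0.10, against -0.034 over all features, and 6 of the 10 were positive, where 43% of features were. Without SH-42 replicate 1 the members' median was -0.028, and 1, Opn1mw, was called, where 1.82% of features were. With median centring the members' median was -0.34, against -0.25 over all features, and 4 were called, all lower, where 37.5% of features were called. For SH-80 against control, 2 of 10 were called, Arr3 below 0 and Pde6h above 0 after loess (0.0072 with median centring), where 14.7% of all features were called, 4.61% higher and 10.1% lower in Cy3. The members' median was -0.049, against -0.031 over all features, and 2 of 10 were positive, where 44.4% of features were. With median centring the members' median was -0.34, against -0.15 over all features. Without SH-42 replicate 1, which enters through the shared estimate of spread, 4 were called for SH-80, Opn1mw, Arr3, Pde6h and Gngt2, where 38.8% of features were, a share close to the members'.

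**Figure D2:**
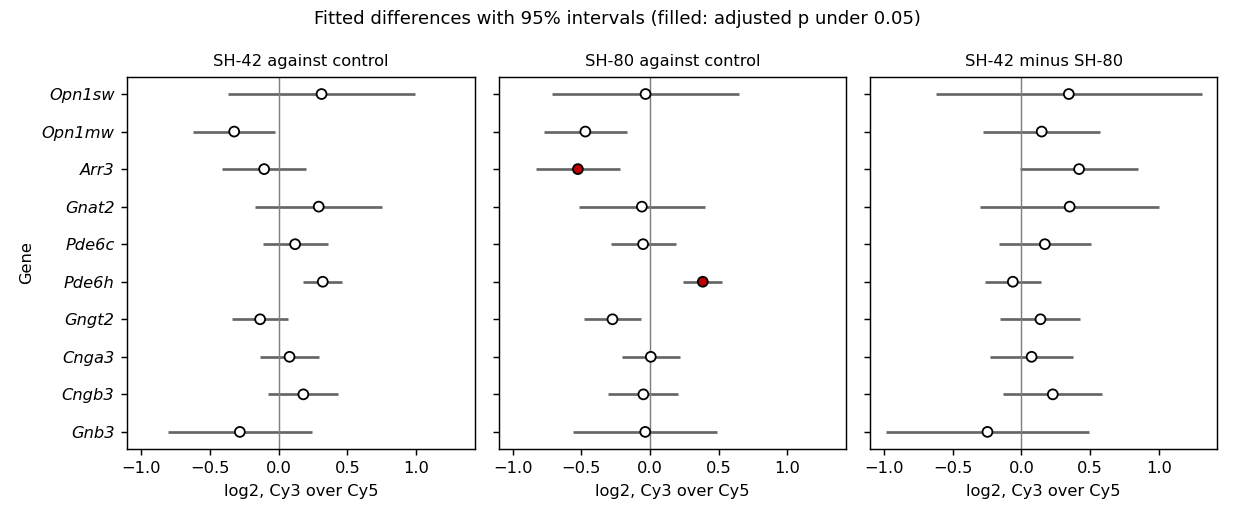
Fitted log2 ratio of Cy3 over Cy5 with its 95% interval (horizontal axis) for each cone gene (vertical axis), for SH-42, SH-80 and SH-42 minus SH-80; filled points have an adjusted p under 0.05. Only Arr3 and Pde6h with SH-80 are filled, and the intervals of Opn1sw, Gnat2 and Gnb3 are the widest.

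The compounds were compared at the same dose and day, as 1 pair. For SH-42 minus SH-80, 0 of 10 members were called by limma after adjustment, as were 0% of all features, and 0 members and 942 features had an unadjusted p under 0.05. Arr3 came nearest, at 0.42 with a 95% interval of -0.013 to 0.85 (limma, adjusted p = 0.691). It was 0.27 without SH-42 replicate 1. The interval of Pde6h, -0.26 to 0.14, was the narrowest and that of Opn1sw, -0.62 to 1.31, the widest, and differences between the compounds within these intervals are not excluded. By the brightest probe, 0 of 10 members had log ratios free of overlap between the compounds, where those of 13.5% of features were.

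The channels contributed very unequally to these ratios. Over the 6 arrays, the normalized log2 Cy3 signal of a member had a median SD of 0.043 and that of Cy5 of 0.24, against 0.068 and 0.14 over all features. The SD was larger in Cy5 for 10 of 10 members, as it was for 78.6% of features. Arr3, for example, had Cy3 signals of 14.56, 14.49 and 14.49 with SH-42 and 14.55, 14.52 and 14.49 with SH-80. Its Cy5 signals, labelled control, were 14.37, 14.61 and 14.89 on the SH-42 arrays and 14.90, 14.99 and 15.24 on the SH-80 arrays. The Cy3 signals were nearly equal across both compounds. In Cy5 the SH-80 arrays lay above the SH-42 arrays, but only just, the nearest values being 14.90 and 14.89. How many features were so separated in Cy5 was not counted.

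**Figure D3:**
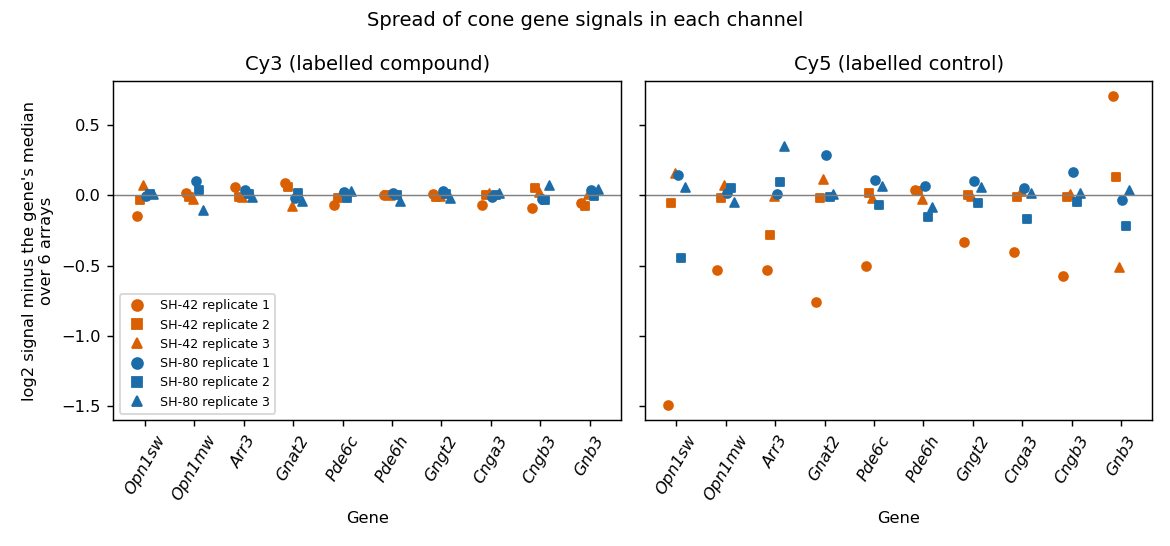
Normalized log2 signal of each cone gene minus its median over the 6 arrays (vertical axis), in Cy3 (left, labelled compound) and Cy5 (right, labelled control); colour gives the compound and shape the replicate. Points cluster near 0 in Cy3 and scatter in Cy5, where SH-42 replicate 1 is lowest for 8 genes and highest for Gnb3.

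SH-42 replicate 1 differed from the other arrays in Cy5. There the Cy5 signal of Opn1sw differed from the median of the other 5 arrays by -1.55 on the log2 scale, and the differences were -0.77 for Gnat2, -0.58 for Cngb3, -0.55 for Opn1mw, -0.54 for Arr3, -0.52 for Pde6c, -0.41 for Cnga3 and -0.34 for Gngt2. Pde6h differed by 0.070 and Gnb3 by 0.74. The corresponding Cy3 differences of the 10 genes lay between -0.16 and 0.10. Of all features, 36.8% had their highest log ratio on this array and 30.5% their lowest.

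The compounds were also compared within a single channel. Each channel signal was rebuilt from the loess log ratio and the mean intensity, so the other dye enters through the normalization. For SH-42 minus SH-80 within Cy3, 0 of 10 members and 0% of features were called by limma (2251 features at an unadjusted p under 0.05), and the members' differences lay between -0.067 and 0.036. Within Cy5, 0 of 10 members and 0% of features were called (870 features unadjusted), with differences from -0.42 for Arr3 to 0.18 for Gnb3. Arr3 in Cy5 had a 95% interval of -0.81 to -0.034 (limma, adjusted p = 0.7) and was the 1 member with an unadjusted p under 0.05; by the labels this compares controls with controls.

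The rod genes that do the same work were compared beside the cone genes. Of 11 rod counterparts, 0 were called for either compound by limma, with medians of 0.16 for SH-42 and -0.042 for SH-80, beside 0.10 and -0.049 for the cone genes. The smallest p-value for SH-42 was that of Pde6b, the rod phosphodiesterase beta subunit, at 0.67 ± 0.139 (limma, adjusted p = 0.108), or 0.46 without SH-42 replicate 1 (adjusted p = 0.0585). For SH-80 they were those of Pde6g, the rod inhibitory subunit, at -0.44 ± 0.163 (limma, adjusted p = 0.114), and Cngb1, a rod channel subunit, at -0.25 ± 0.105 (adjusted p = 0.15). The inhibitory subunits of cones and rods stood at 0.38 (Pde6h, called, but 0.0072 with median centring) and -0.44 (Pde6g, not called, but called at -0.92 with median centring; limma, adjusted p = 0.034) with SH-80. On SH-42 replicate 1 the rod list had a median of 0.54 and the cone genes one of 0.30, and on the other 5 arrays the rod medians lay between -0.20 and 0.050. For SH-42 the rod list's fitted median was -0.021 without that array, with 1 called lower, where 1.82% of all features were called. With median centring it was -0.59, with 7 called lower, and for SH-80 -0.49, with 2 called lower. The cone genes' medians with median centring were -0.34 for SH-42 and -0.34 for SH-80. That setting called 37.5% of all features for SH-42 and 15% for SH-80, in either direction.

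Among 14 regulators that rods and cones share, 0 were called for either compound, with medians of 0.16 and -0.055. The SH-42 median was -0.055 without SH-42 replicate 1. Median centring gave medians of -0.39 and -0.43, with 3 and 2 called lower for SH-42 and SH-80. It called 37.5% and 15% of all features. Gnb5 (0.43, or 0.25 without SH-42 replicate 1) and Rgs9bp (0.38, or 0.11), parts of the complex that shuts transducin off, had the smallest p-values for SH-42. Unc119 (-0.35), which carries lipid-bearing transducin, and Rcvrn (-0.20), recoverin, had them for SH-80.

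Of 9 photoreceptor fate factors, 0 were called for either compound, with medians of 0.15 and -0.052. The SH-42 median was 0.0023 without SH-42 replicate 1. With median centring the medians were -0.46, with 4 called lower where 37.5% of all features were called, and -0.34. Thrb, the thyroid hormone receptor gene that directs M cone fate, was at 0.29 with SH-42 and 0.24 with SH-80 (limma, adjusted p = 0.128 and 0.0614), but at -0.11 and -0.014 with median centring. Crx stood at 0.28 with SH-42, or 0.11 without SH-42 replicate 1, and Rxrg, a retinoid receptor of cones, at -0.15 with SH-80.

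Of 13 genes of photoreceptor segments and terminals, 0 were called for SH-42 and 2 for SH-80, both lower in Cy3, where 10.1% of all features were called lower. These were Rbp3, the retinoid carrier between photoreceptors and pigment epithelium, at -0.85 ± 0.122 (limma, adjusted p = 0.0254), and Rdh12, a retinol dehydrogenase, at -0.42 ± 0.0939 (adjusted p = 0.0385). With SH-42, Rbp3 stood at -0.64, or -0.81 without SH-42 replicate 1 (limma, adjusted p = 0.0246). Slc17a7, the vesicular glutamate transporter of photoreceptor terminals, stood at 0.32, or 0.19 without that array. The list's SH-42 median was 0.094, or -0.12 without SH-42 replicate 1, with 2 called lower where 1.82% of all features were called. With median centring it was -0.41, with 5 called lower and 1 higher, and 4 were called lower for SH-80. That setting called 37.5% of all features for SH-42 and 15% for SH-80.

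Of 6 genes of dorsal or ventral retina, 0 were called for either compound, with medians of -0.22 and -0.19. The SH-42 median was -0.15 without SH-42 replicate 1. Median centring gave -0.49 and -0.33, with 3 called lower for SH-42, where 37.5% of all features were called. Tbx5 (-0.39, or -0.25 without SH-42 replicate 1) and Aldh1a1 (-1.02, or -0.57), both dorsal, had the smallest p-values for SH-42, and Tbx2 (-0.20), dorsal, and Vax2 (-0.18), ventral, for SH-80.

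Markers of other cells also varied with the array. The 10 ON bipolar genes, all above background in both channels on every array, had a median of 1.02 on SH-42 replicate 1, where the cone genes had their highest median, and of -0.46 to -0.062 elsewhere. Their summed log2 signal was 17.02 to 17.06 in Cy3 on the SH-42 arrays and 17.04 to 17.05 on the SH-80 arrays, and 16.00 to 17.12 and 17.19 to 17.48 in Cy5. For SH-42, 10 of 10 were positive and for SH-80 0 of 10, with medians of 0.30 and -0.28, and 0 were called. The SH-42 median turned to -0.079 without SH-42 replicate 1 and to -0.23 with median centring, so the opposite signs of the compounds held under neither. For SH-80, 6 of the 10 were called lower without SH-42 replicate 1, where 38.8% of all features were called in either direction. Gng13 (0.56, or 0.072 without SH-42 replicate 1) and Nyx (0.26, or 0.0074) for SH-42 and Rgs11 (-0.46) and Prkca (-0.38) for SH-80 had the smallest p-values. Of 5 Müller glia genes, Glul, glutamine synthetase, was called lower in Cy3 with SH-80, at -0.59 ± 0.116 (limma, adjusted p = 0.0324), while the other 4 were positive and not called, the list's median being 0.034 (-0.26 with median centring). With SH-42, 0 were called, and Slc1a3 stood at -0.37 and Glul at -0.18, or -0.015 and -0.24 without SH-42 replicate 1. Median centring called 4 of the 5 lower with SH-42, where it called 37.5% of all features in either direction. The list's median was -0.76 on SH-42 replicate 1 and -0.032 to 0.050 elsewhere, and its summed log2 signal 15.56 to 15.63 in Cy3 and 15.52 to 16.04 in Cy5. The 6 microglia genes had a median of -1.31 on that array and of -0.016 to 0.76 elsewhere, with 0 called for either compound. For SH-80, 6 of 6 were positive, with a median of 0.59, and all 6 were called higher from the SH-80 arrays alone, where 38.2% of all features were called. Without SH-42 replicate 1, 5 were called higher for SH-80, where 38.8% of all features were called in either direction. Their summed log2 signal was 13.96 to 14.07 in Cy3 on the SH-42 arrays and 14.00 to 14.01 on the SH-80 arrays, and 12.83 to 15.45 and 12.94 to 13.14 in Cy5. Their smallest p-values were those of Tyrobp (0.75, or 1.99 and called without SH-42 replicate 1) and Cx3cr1 (-0.40, or 0.26) for SH-42 and of P2ry12 (0.30) and Tyrobp (2.37) for SH-80.

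**Figure D4:**
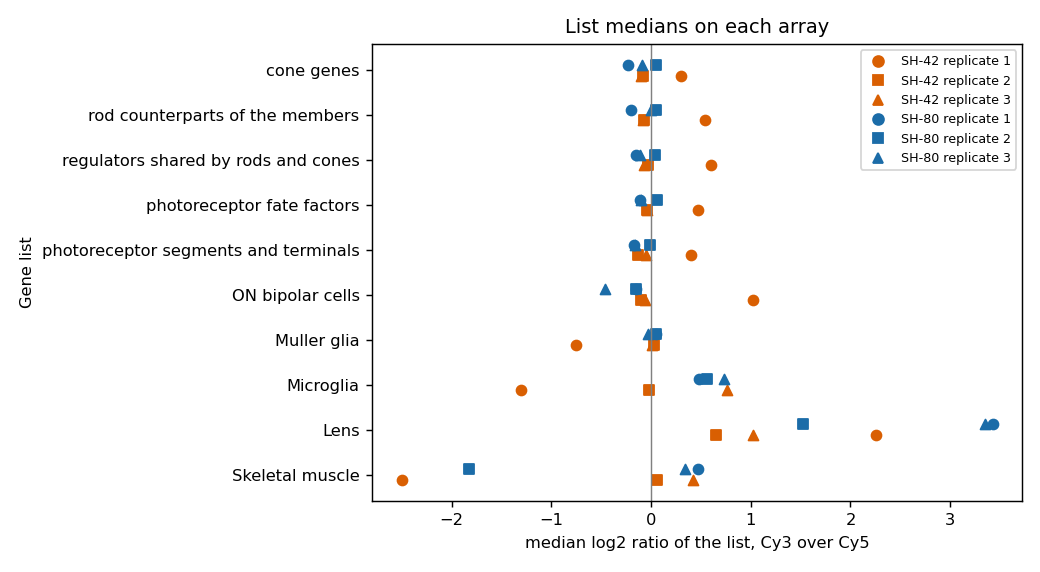
Median log2 ratio of Cy3 over Cy5 (horizontal axis) of the cone genes and of 9 background lists (vertical axis) on each of the 6 arrays; colour gives the compound and shape the replicate. On SH-42 replicate 1 the photoreceptor and ON bipolar lists lie to the right of the other arrays and the Müller glia, microglia and skeletal muscle lists to the left.

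Of 9 lens genes, 7 were called higher in Cy3 with SH-80, where 4.61% of features were called higher: Crygf, Cryge, Crygb, Cryga, Crygd, Crygc and Bfsp1, between 2.08 and 3.20 (limma, adjusted p = 0.0156 to 0.0448). With SH-42, 0 were called, and Cryge (1.60, or 1.25 without SH-42 replicate 1) and Crygf (1.52, or 1.16) came nearest. All 9 were above background in both channels on every array, with a summed log2 signal of 18.52 to 18.71 and 18.70 to 18.90 in Cy3 on SH-42 and SH-80 arrays, and 16.50 to 18.03 and 15.33 to 17.32 in Cy5. Of 8 pigment epithelium genes, 7 were tested (Best1 was not). Of these, Rgr was called higher with SH-80, at 0.67 ± 0.169 (limma, adjusted p = 0.0486), and 0 with SH-42, where Rpe65 stood at 0.91 and Rgr at 0.67, or 0.97 and 0.87 without SH-42 replicate 1. Of 6 skeletal muscle genes, 2 were above background in both channels on every array and 0 were called. Mylpf and Myh4, of smallest p, were well above background in Cy3 on 0 and on 1 array of each compound, so no size is given. Of 3 red cell genes, only 1 was above background in both channels on every array. Slc4a1 was called lower with SH-80 (limma, adjusted p = 0.0421), but in Cy3 it was not well above background on any array (0 of 6), so no size is given. With SH-42 0 were called, and Hba-a1 stood at -0.39, or -0.12 without SH-42 replicate 1. Of 7 genes of other retinal neurons, a list that shares Prkca with the ON bipolar list, Lhx1 of horizontal cells was called lower with SH-80 (limma, adjusted p = 0.0415), likewise without a Cy3 signal well above background on any array. For SH-42 0 of the list were called. The 13 list genes called for SH-80 kept their sign with median centring. Rgr, Lhx1 and Slc4a1 were then not called (limma, adjusted p = 0.212 to 0.826). None of the 13 was called without any 1 of the SH-80 arrays, when 0% of all features were called. The part of other tissues and cells in the cone gene values was not tested.

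The members were compared with each other by the correlation of each log ratio with the median of the other members over the 6 arrays, which share slides and possibly control pools. Cnga3 (r = 0.99), Opn1sw (0.96), Gngt2 (0.95), Gnat2 (0.93) and Pde6c (0.91) followed it most closely, and Gnb3 (-0.76) and Pde6h (0.0080) did not. Without SH-42 replicate 1, over 5 arrays, Cnga3 kept 0.95 and Pde6h had 0.83, while Opn1mw went from 0.76 to -0.53 and Arr3 from 0.61 to -0.17. Of 15803 named features outside the members and lists, those most like the members' median were Ccnj (0.995), Moxd1 (0.991), Poc5 (0.991), Tlcd5 (0.989) and Galnt13 (0.989), and 937 had r of at least 0.9. With 6 arrays, 1 of them far from the rest, these are descriptions.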

How the data were processed

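Scanner files hold spot and local background intensities of both channels, per the file headers, which name Agilent Feature Extraction 11.0.1.1; the submitters' processing notes name 9.3.2.1. They also hold a log10 ratio of processed red over green, per the file headers, not used here. The deposited value table is log2 of processed Cy5 over Cy3 from its values (r of 0.9997 to 0.9999), with column medians of -0.075 to -0.046; what centred it is not given in the sources used here. Median signals were corrected by normexp (offset 50) and normalized by loess; channel signals were also quantile normalized on mean intensity (Aquantile). A probe had to exceed background clearly on 3 or more of the 6 arrays, in whichever channel, and the brightest per gene was kept. limma 3.58.1 (R 4.3.3; lmFit, eBayes) fitted 1 coefficient per compound with Benjamini-Hochberg adjustment over 24078 features; tests are two-sided and intervals are 95%. Tested on simulated data, SH-80 changes of log2 0.5, 1 and 2 were recovered in 50.7%, 86.6% and 97% of cases, those of SH-42 in 49.3%, 89.6% and 93.9%, and those of SH-42 minus SH-80 in 10.4%, 50.7% and 87.9%. The simulated noise was independent between features and arrays, with each feature's SD the same on every array. The real arrays differ in spread and may share control RNA, so these shares need not hold for them. The number of arrays limits the precision.

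The members and lists were chosen with earlier results of these data known. Named are all members, called list genes (otherwise the 2 of smallest p), and the 5 features most correlated with the members' median. The values of 1 list gene that this rule names are not reported here. Alternatives covered background, normalization, filter, probes, slide, weights and single arrays. Python 3.11.15 with matplotlib 3.10.9 drew the figures.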

Additional observations from a re-analysis of the deposited data

Results flagged for a closer look

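In Cy5, labelled control, SH-42 replicate 1 stood apart from the other 5 arrays for 6 of the 10 cone genes. The gap to the next array, as a share of the whole range over 6 arrays, was 0.635 for Opn1sw, 0.802 for Opn1mw, 0.711 for Gnat2, 0.710 for Pde6c, 0.632 for Gngt2 and 0.710 for Cngb3, with SH-42 replicate 1 the lowest each time. Chance alone flags about 1 in 20 such groups, and 22.7% of all features exceeded the same limit in Cy5. The genes share the array, so these are not 6 separate events.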

How the results depend on the processing

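There were 3 arrays per compound, and all members were well above background. What limited the number of calls was not tested. Members called, with the share of all features called in brackets, numbered for SH-42 1 with no background correction (13.2%), Agilent's processed signals (13.4%) or the deposited table (15.7%), 3 with array weights (13.2%) and 4, all lower, with median centring (37.5%). For SH-80 they numbered 0 with scale normalization (3%) or slide as a fixed block (0%), 1 with a normexp offset of 0 (11%), processed signals (18.1%), the strict filter (11.5%), the mean of probes (13.8%) or slide as a random block (9.86%), 3 with median centring (15%; Opn1mw, Arr3 and Gngt2, all lower), no background correction (19.8%), the deposited table (20.2%), no filter (15.8%) or an intensity trend (14.9%), and 4 with array weights (42.3%) or the compound's arrays only (38.2%). Median centring called 9036 features for SH-42 in place of 145 and moved the median of all features to -0.25 for SH-42 and -0.15 for SH-80. The fixed slide block is estimated from the SH-42 arrays alone, also where it shifts the SH-80 values. For SH-42 minus SH-80, it sets SH-42 replicate 3 alone against SH-80 on slide 2.

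Leaving out 1 array gave 0 to 1 members for SH-42 (0% to 1.82% of features), 0 to 4 for SH-80 (0% to 38.8%) and S minus M opsin differences of -0.062 to 0.39. Signs turned within these ranges: for SH-42, Arr3 -0.26 to 0.040, Cnga3 -0.032 to 0.14, Gnat2 -0.0095 to 0.51, Gnb3 -0.62 to 0.022, Opn1sw -0.14 to 0.57 and Pde6c -0.024 to 0.21; for SH-80, Cnga3 -0.060 to 0.055, Cngb3 -0.095 to 0.026, Gnat2 -0.13 to 0.038, Gnb3 -0.093 to 0.010 and Opn1sw -0.22 to 0.086. For SH-42 minus SH-80 they were Cnga3 -0.038 to 0.14, Gnb3 -0.58 to 0.057, Opn1mw -0.050 to 0.27 and Opn1sw -0.11 to 0.60.

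Other settings also turned signs of members not called by limma (adjusted p of 0.0823 to 1). Median centring gave, for SH-42, Cnga3 -0.26, Cngb3 -0.0038, Gnat2 -0.34, Pde6c -0.31 and Pde6h -0.34, for SH-80 Cnga3 -0.22, and for SH-42 minus SH-80 Cnga3 -0.043, Gngt2 -0.13 and Opn1mw -0.095. Array weights gave, for SH-42, Cnga3 -0.011, Opn1sw -0.066 and Pde6c -0.039, and for the difference Cnga3 -0.012, Opn1mw -0.0082 and Opn1sw -0.029. Slide as a fixed block gave Gnb3 0.052 for SH-42, then Cngb3 0.037, Gnat2 0.16, Opn1sw 0.22 and Pde6c 0.0026 for SH-80, and Cnga3 -0.054, Gnat2 -0.088, Gnb3 0.42, Opn1mw -0.10 and Opn1sw -0.17 for the difference. Scale normalization gave differences of Gngt2 -0.093, Opn1mw -0.25 and Pde6h 0.17. Pde6c for SH-80 was 0.0067 with processed signals and 0.016 with the deposited table, Cnga3 for SH-80 -0.0047 with no background correction, and Arr3 for SH-42 0.048 with the mean of probes. The cause of these turns was not tested.

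No label says that replicate numbers pair the samples. Same-numbered arrays had correlations of deviations of -0.15, -0.43 and 0.18. With 3 arrays per compound and SH-42 replicate 1 far from the rest, these values cannot decide whether they do. With the replicate block, 0 members were called for SH-42 minus SH-80, and the S minus M opsin difference stayed 0.20.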

Other observations

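In the RefSeq annotation Gngt2 overlaps Abi3, a gene of microglia. Abi3 had log ratios of -0.59, -0.054 and 0.37 with SH-42 and 0.72, 0.77 and 0.71 with SH-80. Its sign was opposite to that of Gngt2 on 5 of 6 arrays. Gnb3 lies beside Cdca3, a cell cycle gene, without overlap. Cdca3 had log ratios of -1.64, -0.047 and 0.050 with SH-42 and 0.011, -0.17 and 0.19 with SH-80. Abi3 and Cdca3 were thus lowest on SH-42 replicate 1, as were 30.5% of all features. Of the other tested neighbours, Calu, which overlaps Opn1sw, and P3h3, beside Gnb3, were also lowest there, at -0.80 and -0.35. Tex28, beside Opn1mw, and Ampd2, beside Gnat2, were highest there, at -0.11 and 0.42. These neighbours were looked up after the values of the members were seen.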
